A study of Homo sapiens with 4 samples.

Results

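The genes described here are the 10 core genes of non-homologous end joining, taken by symbol: XRCC5, XRCC6, PRKDC, DCLRE1C, LIG4, XRCC4, NHEJ1, PAXX, POLM and POLL. All 10 were among the 23459 genes listed in each library. RNA-Seq was performed on wild type hTERT RPE-1 cells, a telomerase-immortalized human line of retinal pigment epithelial origin. All cultures had been kept for 48 h in medium with 0.1% serum and were then exposed to 200 μM merbarone, a catalytic inhibitor of type II DNA topoisomerases (TOP2). There were 2 libraries after 4 h and 2 after 8 h, with 8064450 to 10324697 counted reads each. Untreated cells were not analysed here, so time under merbarone cannot be told apart from time in low serum.

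Non-homologous end joining rejoins the ends of a DNA double-strand break without a template, and it operates in every phase of the cell cycle. The study used serum starvation to arrest the cells in G0/G1, and whether all were arrested was not tested here. Ku, the heterodimer of the XRCC5 and XRCC6 products, binds the ends and recruits DNA-PKcs, the kinase encoded by PRKDC, together with the nuclease Artemis (DCLRE1C). POLM and POLL encode polymerases that fill gaps, and DNA ligase IV (LIG4) with its partner XRCC4 seals the break, helped by XLF (NHEJ1) and PAXX. TOP2 makes transient double-strand breaks as part of its reaction, and end joining is a main route for repairing those that persist.

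All 10 genes passed the filter on low counts, which asked for a CPM (count relative to the library total) above 1 in 2 or more libraries, as did 12559 genes in all. In the comparison of 8 h with 4 h by the quasi-likelihood test of edgeR, 3 of the 10 fell at a Benjamini-Hochberg adjusted p below 0.05 over all genes. These were XRCC4, XRCC5 and PRKDC. Among all genes tested 18.8% were lower by this rule, so 3 of 10 is not far from the background. None rose, where 19.9% of all genes were higher. The count of 0 was the same at an unadjusted p under 0.05, with limma-voom and with DESeq2. No member was a DEG by the thresholds of the study, which ask for that adjusted p together with a log2 fold change (log2FC) beyond 1 in either direction and which 3.88% of all genes met as lower and 1.45% as higher. For 9 of the 10, all but XRCC4, the 95% interval of the log2FC lay between -1 and 1, as it did for 79.1% of all genes. Fewer cells that express a gene and less RNA per cell cannot be told apart in such bulk samples, and the p-values measure only the spread between these 4 libraries.

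Most estimates lay below 0. The log2FC was below 0 for 8 of the 10 members, with a median of -0.15, while it was below 0 for 50.2% of all genes, with a median of 0.00. Both 8 h libraries lay below both 4 h libraries for 7 members and above for 2, where 34.9% of all genes lay below and 34.8% above. When libraries were scaled by their totals and not by TMM factors, the median of all genes moved to -0.11 and that of the members to -0.25. That scaling changed the calls over all genes from 2500 higher and 2367 lower to 1698 higher and 3289 lower.

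**Figure D1:**
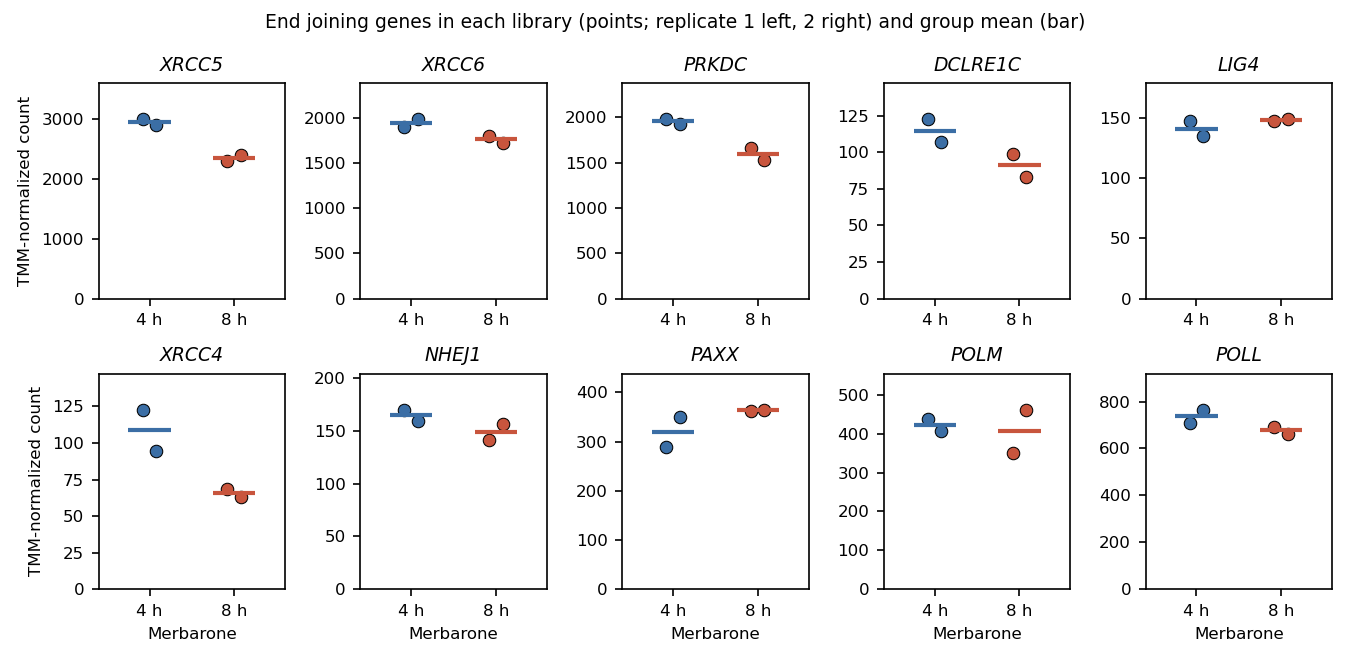
TMM-normalized count (vertical axes, from 0) of each of the 10 end joining genes at 4 h (blue) and 8 h (red) of merbarone, with each library as a point and the mean of the 2 libraries as a bar. XRCC5, PRKDC and XRCC4 show the clearest gaps between the times, while the POLM libraries of 8 h lie on either side of those of 4 h.

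XRCC5, of the Ku heterodimer, had the most reads of the 10. In TMM-normalized counts, which scale each library to the mean effective library size, XRCC5 (chromosome 2, 216972187 to 217071026, plus strand, hg19) measured 2995 and 2893 at 4 h, against 2288 and 2387 at 8 h. There was no overlap between times, and the level fell by 20.6% (log2FC -0.33, standard error 0.07, 95% interval -0.49 to -0.18, edgeR adjusted p = 0.0015). Of the 3 genes that fell, XRCC5 was the only one that passed in all 12 fits with another test, scaling, filter, block or library left out. XRCC6 (chromosome 22, 42017167 to 42060052, plus strand) had 1894 and 1987 at 4 h and 1800.0 and 1721 at 8 h. Its 8 h libraries were also the lower, but the log2FC of -0.14 (standard error 0.08, 95% interval -0.30 to 0.02) did not pass (edgeR adjusted p = 0.162). XRCC6 did pass when each library was corrected for its trend with abundance (log2FC -0.26, edgeR adjusted p = 0.0139) and with library size alone (log2FC -0.25, edgeR adjusted p = 0.0172). XRCC6 has processed pseudogenes, and reads shared with a near-identical copy were not kept in these counts. The copy that was counted, XRCC6P5, had between 0 and 4 reads.

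PRKDC (chromosome 8, 48685672 to 48872738, minus strand) encodes the catalytic subunit of the DNA-dependent protein kinase. Its normalized count measured 1981 and 1927 at 4 h, against 1658 and 1523 at 8 h. The 8 h libraries were both below those of 4 h, and PRKDC fell by 18.6% (log2FC -0.30, standard error 0.08, 95% interval -0.46 to -0.13, edgeR adjusted p = 0.00585). Without 4 h replicate 1 the log2FC was -0.28 and the call was lost (edgeR adjusted p = 0.0657). DCLRE1C (chromosome 10, 14939358 to 14996431, minus strand), whose product Artemis opens hairpins and trims ends once bound to DNA-PKcs, had 122.9 and 107.0 at 4 h and 99.2 and 83.2 at 8 h. Its libraries did not overlap either, and its log2FC was -0.33, close to that of XRCC5. With 67 to 137 reads per library the standard error was 0.19, and the difference did not pass (95% interval -0.73 to 0.07, edgeR adjusted p = 0.186).

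Of the ligation genes, only XRCC4 passed the test. XRCC4 (chromosome 5, 82373317 to 82649606, plus strand), the scaffold that stabilizes DNA ligase IV, had 122.9 and 94.3 normalized counts at 4 h and 68.5 and 63.4 at 8 h, from 137, 104, 67 and 51 reads. It fell by 39.1%, the largest change of the 10 (log2FC -0.72, standard error 0.21, 95% interval -1.15 to -0.28, edgeR adjusted p = 0.0108). Only 8.79% of all genes tested had a lower log2FC than XRCC4. The call rested on 4 h replicate 1, the highest library, without which the log2FC was -0.52 (edgeR adjusted p = 0.169). DESeq2 did not call it either (log2FC -0.72, adjusted p = 0.0681).

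LIG4 (chromosome 13, 108859787 to 108870716, minus strand), which encodes the ligase itself, measured 147.2 and 135.1 normalized counts at 4 h, against 147.3 and 149.1 at 8 h. The replicates of 4 h differed by more than the nearest libraries of the 2 times did. The log2FC was 0.07 (standard error 0.16, 95% interval -0.27 to 0.41, edgeR adjusted p = 0.762), and it was -0.04 with library size alone. NHEJ1 (chromosome 2, 219934077 to 220025591, minus strand), whose product XLF forms filaments with XRCC4 across the break, had 170.5 and 159.6 at 4 h and 141.1 and 156.6 at 8 h. Its log2FC was -0.15 (standard error 0.16, 95% interval -0.48 to 0.18, edgeR adjusted p = 0.473). PAXX (chromosome 9, 139886874 to 139888436, plus strand), a paralog of XRCC4 and XLF that binds Ku, had 288.1 and 349.9 at 4 h and 363.1 and 365.3 at 8 h. It had the highest log2FC of the 10, 0.19, without passing the test (standard error 0.12, 95% interval -0.06 to 0.44, edgeR adjusted p = 0.224). Without 4 h replicate 1, the lowest library for PAXX, the log2FC was 0.05.

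The gap-filling polymerases belong to the X family, like the lymphoid enzyme encoded by DNTT, which had no read in any library. POLM (chromosome 7, 44111661 to 44122129, minus strand) measured 437.9 and 407.0 normalized counts at 4 h, against 350.8 and 462.2 at 8 h. It was the only member whose times overlapped (log2FC -0.06, standard error 0.12, 95% interval -0.32 to 0.19, edgeR adjusted p = 0.715). Its 8 h replicates disagreed so far that the log2FC ran from -0.27 without 8 h replicate 2 to 0.13 without 8 h replicate 1. POLL (chromosome 10, 103338639 to 103348027, minus strand) had 707 and 766 at 4 h and 691 and 662 at 8 h. Its log2FC was -0.12 (standard error 0.09, 95% interval -0.31 to 0.07, edgeR adjusted p = 0.316).

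**Figure D2:**
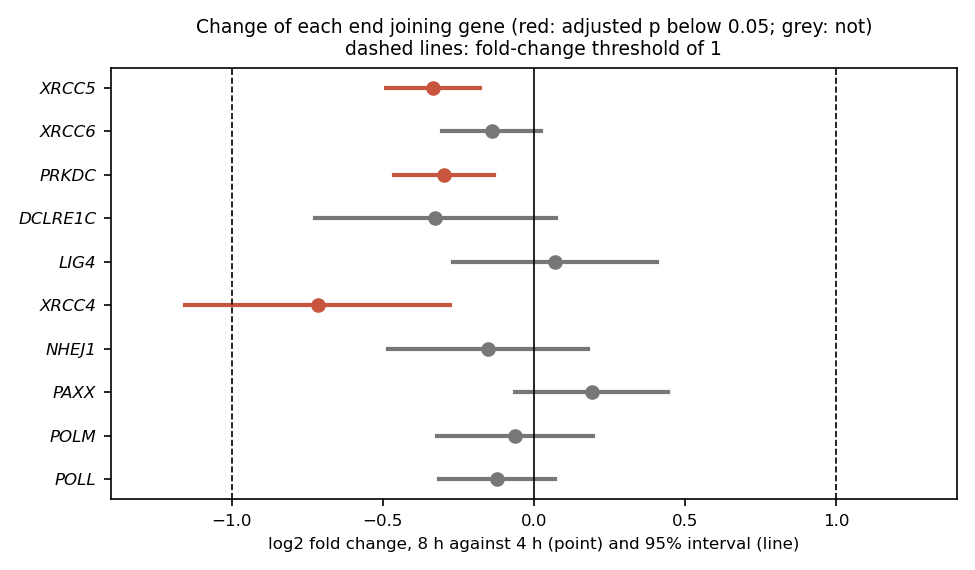
Log2FC of 8 h against 4 h (horizontal axis) for each of the 10 genes, with its 95% interval from the edgeR fit as a line; red genes passed an adjusted p of 0.05, and dashed lines mark the fold-change threshold of 1. XRCC4 has the lowest value, -0.72, and an interval that crosses -1, and PAXX the highest, 0.19.

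The members differ widely in abundance. Levels were compared as TMM-normalized CPM per kilobase of exon, with the exons of all GENCODE transcripts of a gene merged on GRCh37, the assembly that hg19 represents. At 4 h the mean level was 62.4 for XRCC6 and 56.2 for XRCC5, followed by PAXX at 24.4, POLL at 14.2, POLM at 9.45, PRKDC at 7.01 and XRCC4 at 4.23. LIG4 at 2.07, NHEJ1 at 1.65 and DCLRE1C at 0.784 were the lowest, so the range spanned 79.6-fold. At 8 h the order of all 10 was the same, from 56.6 for XRCC6 down to 0.622 for DCLRE1C, and the range was 91.0-fold. No neighbours in this order overlapped between libraries of the same time. The order was also the same when only the 75-base positions that lie inside 1 exon were counted, as ungapped reads require, or when the Ensembl canonical transcript gave the length. With canonical lengths, POLM overlapped PRKDC at 4 h, as NHEJ1 overlapped DCLRE1C, and the range was 47.4-fold at 4 h and 54.2-fold at 8 h. With positions inside 1 exon it was 102-fold and 116-fold. The levels depend on the length used, since the merged exons of PRKDC span 29072 bases and its canonical transcript 13458.

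**Figure D3:**
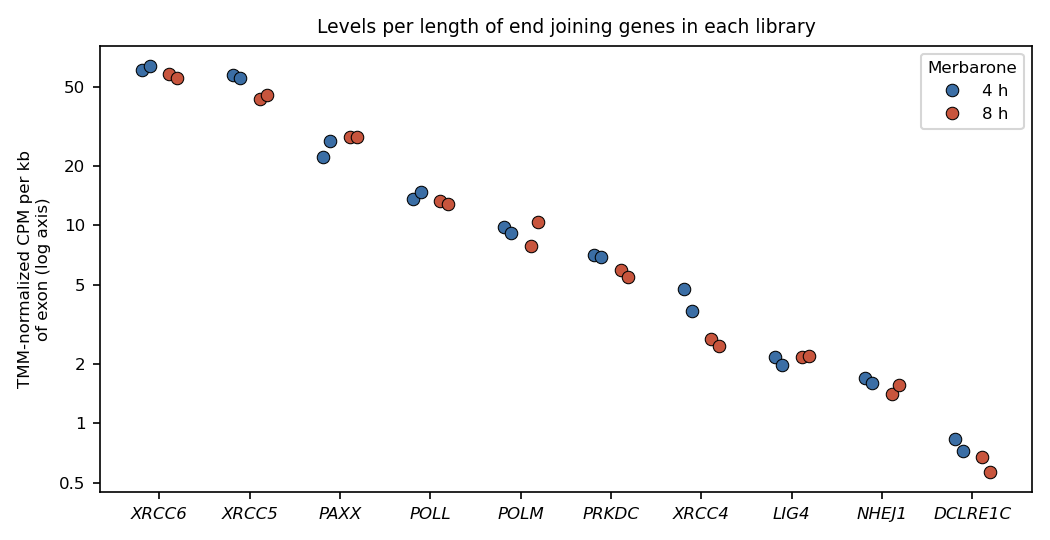
TMM-normalized CPM per kilobase of merged exon (vertical axis, log scale) of each end joining gene in each library, at 4 h (blue) and 8 h (red). The genes are in the order of their mean at 4 h, from XRCC6 at 62.4 to DCLRE1C at 0.784, and the order is the same at 8 h.

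Ratios of reads between partners in a library do not depend on how libraries are scaled. The ratio of XRCC6 to XRCC5 reads, the subunits of Ku, at 4 h measured 0.633 and 0.687, against 0.787 and 0.721 at 8 h. It was higher in both 8 h libraries, by 0.19 on the log2 scale. The ratio of XRCC4 to LIG4 reads was 0.835 and 0.698 in the 4 h libraries, against 0.465 and 0.425 later, a log2 change of -0.78. Relative to XRCC4, NHEJ1 went from 1.39 and 1.69 to 2.06 and 2.47, and PAXX from 2.34 and 3.71 to 5.30 and 5.76. In each of these ratios with XRCC4 the times did not overlap, and XRCC4 was the lower relative to its partner at 8 h. They share the same XRCC4 reads and so are not separate results. In normalized counts of single genes, both 8 h libraries lay below both 4 h libraries for 34.9% of all genes and above for 34.8%. The ratio of PRKDC to XRCC5 reads overlapped, at 0.662 and 0.666 against 0.725 and 0.638. So did that of POLL to POLM, at 1.61 and 1.88 against 1.97 and 1.43. With 2 libraries against 2, an exact permutation test cannot give a two-sided p below 0.333, and the ratios are given as a description without a test.

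Of the 10 members, 5 start next to a gene on the other strand. PRKDC starts 7 bases from MCM4 by the GENCODE annotation on GRCh37. By the RefSeq starts on GRCh38.p14, XRCC4 lies 153 bases from TMEM167A, XRCC6 252 bases from DESI1, LIG4 43 bases from ABHD13 and POLL 51 bases from DPCD. The GENCODE annotation gives 120 bases for XRCC6 and DESI1 and 24 for LIG4 and ABHD13. In it TMEM167A overlaps XRCC4, and DPCD overlaps POLL. MCM4, a subunit of the replicative helicase, had 2100 and 2177 reads at 4 h and 830 and 680 at 8 h. It fell as a DEG (log2FC -1.19, standard error 0.08, 95% interval -1.36 to -1.02). There were 0.951 and 1.02 reads on MCM4 per read on PRKDC at 4 h and 0.512 and 0.555 at 8 h, a log2 change of -0.89. The 95% intervals of MCM4 and PRKDC did not overlap, but both come from the same libraries and the difference between the genes was not tested.

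The sequences between the RefSeq starts of 4 of these pairs are read 5′ to 3′ on the strand of the end joining gene. They are shown because each lies between the RefSeq starts of a pair whose members are compared here. They are from RefSeq on GRCh38.p14, and capitals mark exact matches to the SP1 motif GGGCGG, the ETS motif ACTTCCGG or, on the other strand, the NF-Y motif CCAAT. The stretch of XRCC4 is chr5:83077395-83077546 (plus strand), that of XRCC6 chr22:41621045-41621294 (plus strand, 250 of the 251 bases), that of LIG4 chr13:108218350-108218391 (minus strand) and that of POLL chr10:101588271-101588320 (minus strand).
XRCC4 to TMEM167A: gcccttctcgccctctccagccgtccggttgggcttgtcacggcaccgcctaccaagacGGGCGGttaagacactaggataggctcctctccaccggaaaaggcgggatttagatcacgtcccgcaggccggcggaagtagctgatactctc
XRCC6 to DESI1: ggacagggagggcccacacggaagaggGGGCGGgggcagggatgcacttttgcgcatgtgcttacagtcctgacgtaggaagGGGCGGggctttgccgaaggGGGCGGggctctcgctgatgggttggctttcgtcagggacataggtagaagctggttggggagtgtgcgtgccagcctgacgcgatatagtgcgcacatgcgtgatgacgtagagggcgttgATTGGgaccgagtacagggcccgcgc
LIG4 to ABHD13: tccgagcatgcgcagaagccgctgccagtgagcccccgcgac
POLL to DPCD: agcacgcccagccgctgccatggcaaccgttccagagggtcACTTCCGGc

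TMEM167A, which encodes a membrane protein, fell as XRCC4 did. It had 602 and 489 reads at 4 h and 323 and 251 at 8 h (log2FC -0.61, standard error 0.12, edgeR adjusted p = 0.000414). Per read on XRCC4 there were 4.39 and 4.70 reads on TMEM167A at 4 h, against 4.82 and 4.92 at 8 h, so this ratio did not overlap between times, with a log2 change of 0.10. ABHD13 had 168 and 166 reads at 4 h and 102 and 98 later, and the ratio to LIG4 also did not overlap between times (1.02 and 1.11 against 0.708 and 0.817), but the ABHD13 log2FC of -0.42 (standard error 0.17) did not pass (edgeR adjusted p = 0.059). DESI1 and XRCC6 had log2FC of -0.20 and -0.14, and neither passed. For DPCD the log2FC was 0.26 (standard error 0.12), beside -0.12 for POLL, and it did not pass (edgeR adjusted p = 0.0999). The ratio of DPCD to POLL was higher in both 8 h libraries, at 0.540 and 0.477 against 0.415 and 0.370. These ratios were not tested. In normalized counts of single genes, 34.9% of all genes were lower in both 8 h libraries and 34.8% were higher. Exons of DPCD overlap 4.48% of those of POLL, and exons of SUV39H2 overlap 1.04% of those of DCLRE1C. Use of the strand in counting is not given in the sources used here, so reads from these stretches cannot be assigned.

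**Figure D4:**
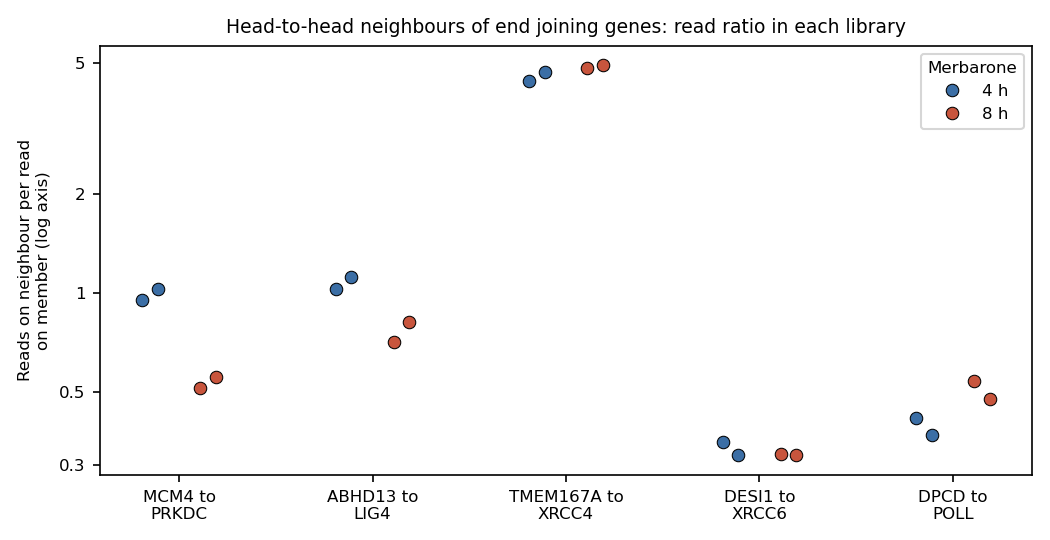
Reads on the head-to-head neighbour per read on the end joining gene (vertical axis, log scale) in each library at 4 h (blue) and 8 h (red). The ratio of MCM4 to PRKDC drops from 0.951 and 1.02 to 0.512 and 0.555, while that of TMEM167A to XRCC4 is slightly higher at 8 h, at 4.82 and 4.92 against 4.39 and 4.70.

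Promoter windows from 250 bases before to 50 bases after a RefSeq start were at hand for 8 members, in 15 windows, and PRKDC and XRCC5 had none. On either strand, the ETS motif was in 5 of the 15 windows, belonging to 4 members (LIG4, DCLRE1C, PAXX and POLL), and in 4.14% of all 35116 windows. The SP1 motif was in 10 of the 15 windows, of 7 members (44.95% of all windows), and the NF-Y motif in 8, of 6 members (34.6%). The E2F motif TTTCCCGC was in none (1.63% of all windows), and the E2F motif TTTGGCGC was in 1 window, of XRCC6 (0.652%). The YY1 motif AAGATGGC was in 2 windows of POLL (2.89%), the CRE motif TGACGTCA in 2 windows of LIG4 (1.85%), and the CHR motif TTTGAA (15.2%) and the NRF1 motif (1.24%) in none. Windows of 1 gene overlap, genes differ in their number of windows, and a match is no more than the presence of these letters.

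Other genes of double-strand break repair were taken from lists chosen with earlier results of these data known. Each list is given by its counts and its median, and differences between lists were not tested. Over all genes tested, 18.8% were lower and 19.9% higher. Among the accessory factors of end joining, 9 of 10 were tested, of which 4 fell and 1 rose, with a median log2FC of -0.35 (-0.23 without 8 h replicate 2). WRN, a helicase and exonuclease, fell the most (log2FC -0.82, standard error 0.17, edgeR adjusted p = 0.000974), followed by TDP1, which removes protein adducts from DNA 3′ ends (log2FC -0.72, standard error 0.17, edgeR adjusted p = 0.00192). CYREN, a Ku-binding regulator of end joining, had 592 and 655 reads at 4 h and 335 and 287 at 8 h (log2FC -0.69, standard error 0.11, edgeR adjusted p = 5.31e-05). APLF, a Ku-binding scaffold, was the one that rose, from 72 and 70 reads to 95 and 75 (log2FC 0.57, standard error 0.20, edgeR adjusted p = 0.0312). APLF was not called by DESeq2, with library size alone, or without either 4 h library or 8 h replicate 1. The number that fell was 2 without 4 h replicate 2 and 6 without 8 h replicate 1 or with library size alone.

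The 53BP1 and shieldin axis, which holds back resection of the ends and so favours end joining, had 1 call. Over all genes, 18.8% fell and 19.9% rose. Of the 12 tested in this axis, TP53BP1, which encodes 53BP1, fell (log2FC -0.65, standard error 0.09, edgeR adjusted p = 2.57e-05), and none rose. The median was -0.07. It ran over the alternatives from -0.17 with library size alone to 0.02 with the abundance trend corrected, and it was -0.16 without 8 h replicate 1 and 0.00 without 4 h replicate 1. The count was 3 with library size alone and 2 with the replicate number as a block, the abundance trend corrected or either 8 h library left out. SHLD3 and TEN1 were not analysed here.

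In the lists of the competing routes larger shares passed as lower, beside 18.8% of all genes and 3 of the 10 members. These lists were chosen with earlier results known, and their difference from the members was not tested. In the list of polymerase theta mediated end joining and resection, 8 of 11 fell and the median was -0.54. The DEGs among them were EXO1 (log2FC -1.70, standard error 0.15) and FEN1 (log2FC -1.57, standard error 0.12), both nucleases of replication and repair. The count of 8 was 5 with DESeq2 and 10 with library size alone, and the median was -0.37 without 4 h replicate 1. In the core list of homologous recombination, which copies an intact sister and is restricted to S and G2 phases, 10 of 13 fell, 6 of them as DEGs, and the median was -0.99. Of all genes tested, 3.88% were DEGs as lower. The count of 10 was 9 with DESeq2 and 11 with library size alone. RAD54L (log2FC -1.74, standard error 0.15) and BRCA1 (log2FC -1.60, standard error 0.12) fell the most. Within the 10 end joining genes the lowest log2FC was -0.72.

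Markers of proliferation were lower at 8 h than at 4 h, beside 18.8% of all genes that passed as lower and 19.9% as higher. All 10 in the list, of which MCM4 is 1, fell, 9 of them as DEGs, with log2FC from -2.67 to -0.40 and a median of -1.20, and their summed TMM-normalized CPM was 1392 and 1375 at 4 h, against 697 and 648 at 8 h. At 4 h MKI67 had 2774 and 2916 reads and TOP2A 3486 and 2988, so these transcripts were abundant in the starved cultures. The part of the proliferation markers in the changes of the repair genes was not tested. Of 12 markers of retinal pigment epithelium, 4 passed the CPM filter and none was called. MITF had 669 to 882 reads and OTX2 132 to 193, while RPE65 had 2 to 7 reads and TYR and DCT had 0 in every library. Markers of endothelial cells had at most 5 reads in a library. The 4 mesenchymal markers summed to a CPM of 22396 and 22077 at 4 h, against 27726 and 29065 at 8 h, and FN1 (log2FC 0.36) and VIM (log2FC 0.36) rose and COL1A1 (log2FC -0.80) fell. Of 3 immune markers only CD68 passed the filter, and it rose (log2FC 0.39), while CD3E had no read. Of 4 epithelial markers 2 passed and KRT18 fell (log2FC -0.51), and EPCAM had no read. Of 3 neuronal markers 2 passed and none was called. Their part in the results was not tested either.

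**Figure D5:**
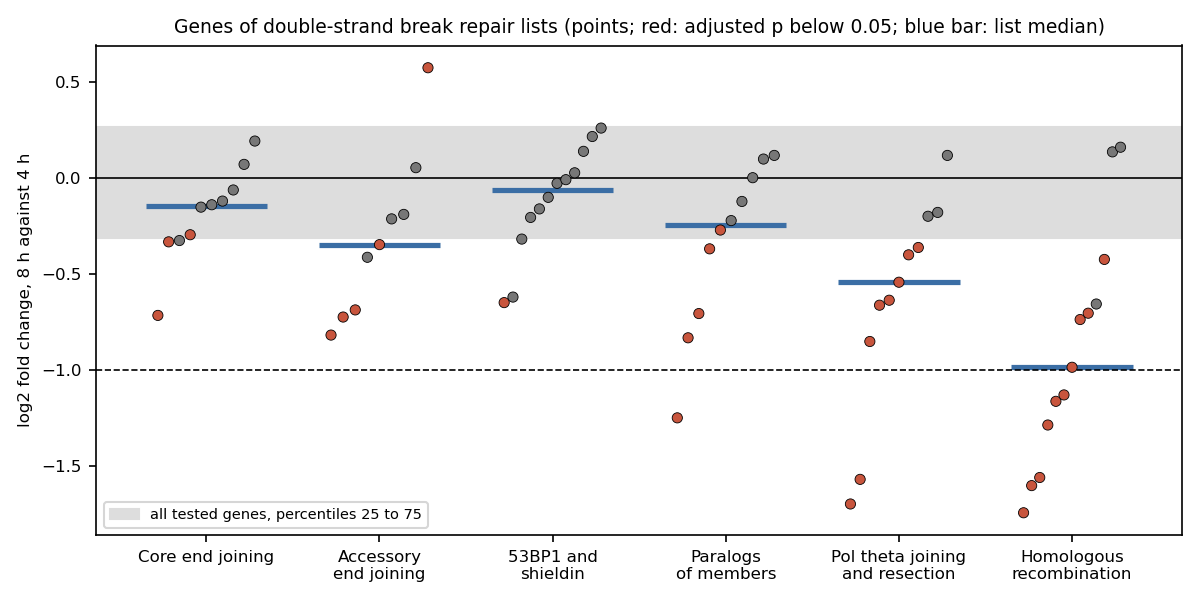
Log2FC of 8 h against 4 h (vertical axis) of each tested gene in 6 lists, with genes at an adjusted p below 0.05 in red, others in grey, list medians as blue bars and the percentiles 25 to 75 of all tested genes as a grey band. The core end joining genes have a median of -0.15 and none below the dashed line at -1, while 6 homologous recombination genes lie below it.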

How the data were processed

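Processed data were 4 tables of raw counts per gene, 1 for each RNA-Seq library. After quality control in FASTQC, the authors aligned reads to hg19 by Bowtie 1.2.0, discarded those with more than 1 position, and deposited the counts without normalization, filtering or pooling of replicates. The gene annotation, the counting tool and the use of strand are not given in the sources used here. Bowtie aligns without gaps, so reads over exon junctions are lost, as are reads from sequence that occurs in several copies.

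From the deposited counts, 12559 genes were kept (CPM above 1 in 2 libraries or more) and TMM factors were calculated. The 8 h libraries were compared with those of 4 h by the quasi-likelihood test of edgeR 4.0.16 (R 4.3.3) across all genes, with time as the only term. The standard error is the size of the log2FC divided by the square root of F, and intervals use the degrees of freedom of the fit. Limma-voom (limma 3.58.1), the test of the study, and DESeq2 1.42.0 were alternatives, beside other scalings, filters, a block, a trend correction and leaving out each library. The canonical transcript length was added after seeing the data. Members and lists were chosen with earlier results of these data known. From each list of repair genes, the called genes with the largest rise and the 2 largest falls were named, with genes that share a complex or a start with a member, and marker lists were given as counts and ranges. PIKK kinases, DNA ligases and single marker genes were named after their values were seen.

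Symbols came from the RefSeq table of GRCh38.p14 (23308 of 23459 identifiers matched) and positions from GENCODE on GRCh37. Replicates differed by more than sampling noise (chi-square per degree of freedom 2.67 at 4 h and 3.84 at 8 h). The study calls them biological replicates. The biological coefficient of variation was 6.52%. The value of 1 accessory gene is not reported here.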

Additional observations from a re-analysis of the deposited data

How the results depend on the processing

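Of 120 values, the log2FC of 10 genes under 12 alternatives, 113 kept their direction and their side of the threshold, 3 lost a call, 2 gained one and 2 changed sign, none of the last called. The sign changes were LIG4 with library size alone (-0.0358) and POLM without 8 h replicate 1 (0.13, in a range from -0.27). Most of the 10 genes were not called, and such genes keep their side of the threshold by staying uncalled. In the 8 alternatives that leave out no library, PRKDC and XRCC5 were called in 8 and XRCC4 in 7. The number of members that fell was 3 with limma-voom, RLE size factors and either other CPM filter, 2 with DESeq2 or an adjusted p below 0.01, and 4 with library size alone or the trend correction. It was between 1 and 3 with a library left out, where the lone library of a time is assumed to vary like the pair. Over all genes, DESeq2 called 1490 lower. With a library left out, from 1605 to 2534 genes were higher and from 1509 to 2294 lower. With the replicate number as a replicate block, 3 members fell. Over all genes that fit called 2829 higher and 2664 lower, beside 2500 and 2367 without the block. Deviations of same-numbered libraries had a correlation of 0.05 over all genes and 0.11 over those whose mean count reached 100. Pairing itself was not tested. Depth limits LIG4, XRCC4, NHEJ1 and DCLRE1C, with 51 to 190 reads per library and standard errors of 0.16 to 0.21.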

Other observations

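Families that include a member held genes that fell and genes that did not pass. Of the SNM1 nucleases, DCLRE1A, which acts in repair of DNA crosslinks, fell to a log2FC of -1.25 (standard error 0.16, 95% interval -1.59 to -0.90), and DCLRE1B, a telomere nuclease, to -0.83 (standard error 0.18, 95% interval -1.22 to -0.45), beside an interval of -0.73 to 0.07 for DCLRE1C. Of the kinases related to DNA-PKcs, ATR fell (log2FC -0.71, standard error 0.15, edgeR adjusted p = 0.0011). ATM fell by less than ATR (log2FC -0.27, standard error 0.10, edgeR adjusted p = 0.0427), close to the log2FC of -0.30 of PRKDC. MTOR (log2FC 0.10, 95% interval -0.10 to 0.29), SMG1 (log2FC 0.00, 95% interval -0.18 to 0.19) and TRRAP (log2FC -0.12, 95% interval -0.32 to 0.08) did not pass. Of the other DNA ligases, LIG1, which joins replicated strands, fell (log2FC -0.37, standard error 0.12, edgeR adjusted p = 0.0207). LIG3 had a log2FC of 0.12 (95% interval -0.18 to 0.42), beside 0.07 for LIG4. In all, 5 of the 10 tested genes of this list fell and none rose, beside 18.8% of all genes lower and 19.9% higher. The median log2FC of the list was -0.25, and it ran from -0.28 to -0.22 with a library left out. The count of 5 was 3 with DESeq2. Whether these genes differ from the members was not tested.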
